A study of Mus musculus with 6 samples.

Results

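The genes described here encode the retinoblastoma family of pocket proteins (Rb1, Rbl1 and Rbl2), the MuvB core (Lin9, Lin37, Lin52, Lin54 and Rbbp4) and the transcription factors B-Myb (Mybl2) and FoxM1 (Foxm1). They were taken by gene symbol, as every probe set annotated to 1 gene only, which gave 10 genes with 25 probe sets out of 18193 genes with 34945 probe sets on the array. A further 2 probe sets annotated to a member together with other genes were left out. V720, a line from a mouse breast cancer whose tissue is given as mammary epithelium, was grown in medium with fetal calf serum. The tested cells received 1 µM PD0332991 for 24 h and the control cells received vehicle for 24 h, with 3 samples in each group, which the submitters describe as biological triplicates. PD0332991 (palbociclib) inhibits the kinases CDK4 and CDK6. A single line was used, and the labels give neither its driver lesion nor its Rb1 genotype.

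Pocket proteins bind E2F transcription factors and hold E2F target genes silent until cyclin-dependent kinases phosphorylate them. In resting cells p130 (Rbl2) or p107 (Rbl1) joins E2F4 or E2F5, a DP partner and MuvB to form the DREAM complex, which represses genes of both DNA replication and mitosis. In cycling cells MuvB leaves the pocket protein and binds B-Myb and then FoxM1, and the same core then activates mitotic genes through a promoter element called the CHR, which LIN54 contacts. Rbl1, Mybl2 and Foxm1 are themselves known as cell-cycle genes.

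Promoter sequences from RefSeq (GRCm38.p6) were matched by symbol for 7 of the 10 genes, with 8 promoters in all. The array annotation names no build, so the coordinates below belong to RefSeq alone. Shown are the 250 bases before the annotated start site, 5′ to 3′ on the gene's strand, for Rbl1 and Mybl2, the genes with the largest falls among those 7, and for Rbl2, which was not called as changed. Capitals mark matches to E2F-type letters (GGCGGGA, TTTCGCGC or TTTGGCGC) or CHR-type letters (TTTGAA or TTCGAA), searched on both strands.
Rbl1, chr2:157204535-157204784, minus strand: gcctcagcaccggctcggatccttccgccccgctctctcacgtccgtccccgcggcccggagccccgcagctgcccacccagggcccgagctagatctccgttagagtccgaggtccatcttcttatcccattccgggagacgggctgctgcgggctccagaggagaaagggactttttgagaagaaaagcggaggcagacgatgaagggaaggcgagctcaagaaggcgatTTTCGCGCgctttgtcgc
Mybl2, chr2:163054385-163054634, plus strand: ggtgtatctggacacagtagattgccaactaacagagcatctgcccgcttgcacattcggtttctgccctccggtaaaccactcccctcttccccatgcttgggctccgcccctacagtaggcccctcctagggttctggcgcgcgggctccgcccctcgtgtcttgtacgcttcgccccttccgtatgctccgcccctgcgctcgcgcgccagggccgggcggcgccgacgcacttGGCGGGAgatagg
Rbl2, chr8:91069807-91070056, plus strand: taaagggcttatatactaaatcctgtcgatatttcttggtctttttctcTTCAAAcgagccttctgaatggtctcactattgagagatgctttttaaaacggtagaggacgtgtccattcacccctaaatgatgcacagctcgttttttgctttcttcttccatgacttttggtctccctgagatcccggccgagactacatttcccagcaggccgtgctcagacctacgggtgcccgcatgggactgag

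The Rbl1 promoter held TTTCGCGC at 18 to 11 bases before the start site, and the Mybl2 promoter held GGCGGGA at 13 to 7 bases before it. The Rbl2 promoter held neither E2F-type string in this window, and its only match was TTTGAA, on the opposite strand, at 201 to 196 bases before the start site. Among the other members, GGCGGGA was also found before Lin37, Lin52 and Lin54, so that 4 of the 7 genes held it, and TTTGAA before Lin37 and Lin54. Lin37, like Rbl2, was not called as changed, while Rbbp4 was called lower and its promoter held no match. The 3 sequences shown therefore do not stand for a link between matches and calls. Of all 27025 genes with a RefSeq promoter, 11.03% held GGCGGGA, 0.759% held TTTCGCGC or TTTGGCGC and 19.6% held a CHR-type string. A gene was counted once if any of its promoters matched. These matches describe letters in a window and are not measured binding sites.

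Gene levels were compared on the scale of log2(intensity + 16), on which the change of dim genes is understated, and each gene was represented by its brightest probe set. Fold values are taken on this scale too, with 16 added to each intensity, and are not ratios of the printed intensities. A gene was called when the adjusted p of limma (Benjamini-Hochberg over all 18193 genes, two-sided) was under 0.05. With PD0332991, 8 of the 10 genes were called, all of them lower, and none was called higher. Over all genes, 21.0% were called, 11.2% lower and 9.81% higher. Of the members, 7 of the 10 lay above the median level of all genes, and Foxm1, Mybl2 and Lin52 lay below it. The share called was larger when the fit was repeated after a filter on dim rows. Of the 10916 genes left by that filter, 4866 were called, 2302 of them higher, and 8 members were called. The median log2 fold change of the 10 genes was -0.39, beside 0.00484 over all genes. On every one of the 10, all 3 PD0332991 arrays lay below all 3 vehicle arrays, a separation in this direction that 19.6% of all genes showed. In RNA from whole cultures, fewer cells that express a gene and less RNA per cell cannot be told apart.

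The arrays were of a like level, with median intensities of 69.56 to 71.1 on the PD0332991 arrays and 71.3 to 72.7 on the vehicle arrays. Correlations across genes were 0.9969 to 0.9973 within groups and 0.9919 to 0.9927 between them. Hybridization spike-in controls averaged 10.001 to 10.05 (log2) on the PD0332991 arrays and 9.74 to 10.03 on the vehicle arrays. The lowest was vehicle replicate 1. Centring on these controls does not measure RNA per cell. Higher genes made up 46.7% of all calls, 56.9% after centring on the array median and 14.0% after centring on the spike-ins, which moved the median of all genes to -0.12. With spike-in centring but without vehicle replicate 1, an alternative chosen after seeing the data, these values were 26.2% and -0.04. For the epithelial label, Krt8 had an intensity of 10596 ± 323 with PD0332991 and 9981 ± 105 with vehicle, and Epcam 9662 ± 66.0 with PD0332991 and 9635 ± 166 with vehicle (SD, n = 3 each). The basal keratin gene Krt14 had 18.8 ± 7.30 with PD0332991 and 28.8 ± 4.93 with vehicle, and Krt19 had 1.42 ± 0.733 with PD0332991 and 1.0 on every vehicle array. These marker genes were picked for naming after their values were seen, and their levels are descriptions, since probe sets differ in brightness for a given amount of RNA.

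**Figure D1:**
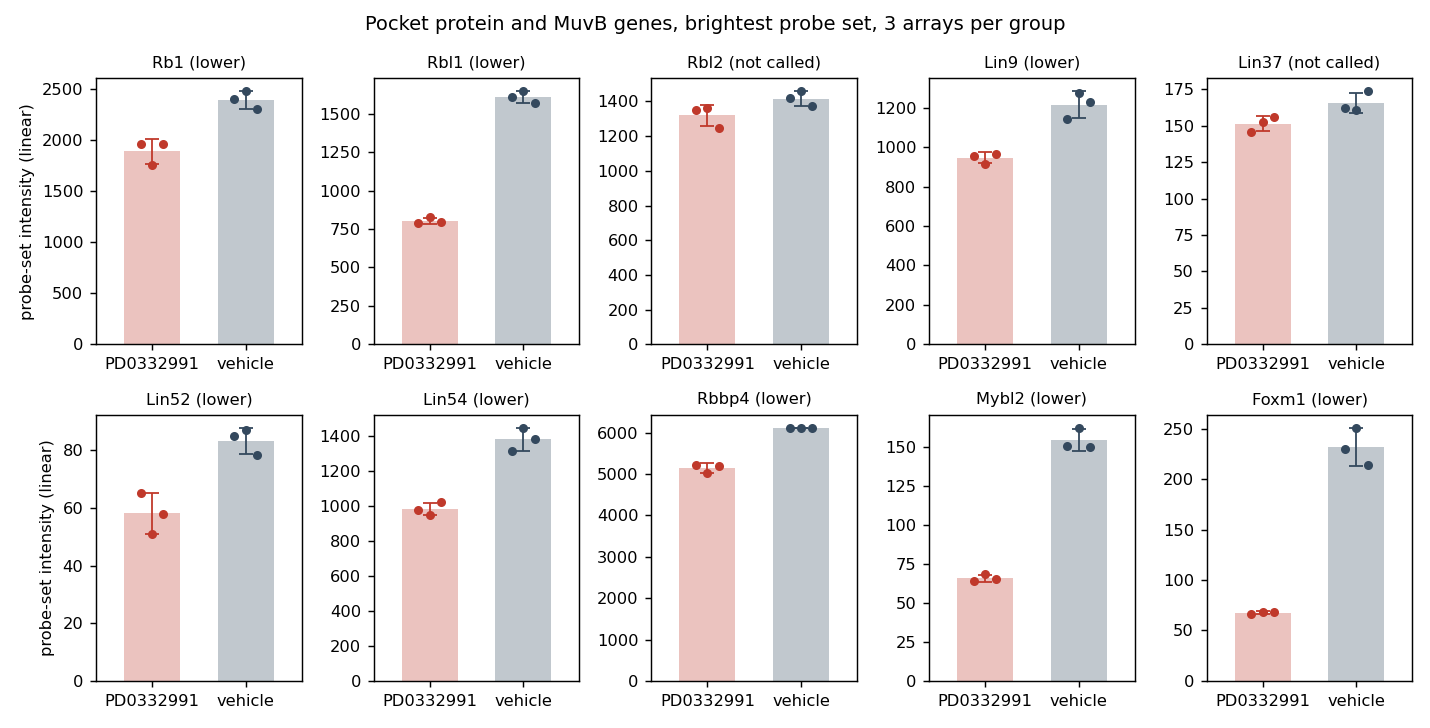
Linear probe-set intensity of the brightest probe set of each of the 10 genes, PD0332991 left and vehicle right; points are arrays, bars are group means and error bars are SDs (n = 3). Each panel has its own axis from 0. In every panel the 3 PD0332991 points lie below the 3 vehicle points, with vehicle means from 83.3 (Lin52) to 6114 (Rbbp4).

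Among the pocket protein genes, Rbl1 and Rb1 fell, with log2 fold changes of -0.99 and -0.34, and Rbl2 was not called. Rbl1, which encodes p107 (chromosome 2), had intensities of 787, 825 and 796 on the PD0332991 arrays, against 1609.9, 1647 and 1571 on the vehicle arrays. The groups were far apart, and the level was 1.99-fold lower (log2 fold change -0.99, SE 0.04, limma adjusted p = 5.9e-05). Of its 4 probe sets, 3 were called lower, with log2 fold changes of -1.10, -0.99 and -0.84. The last was dim in both groups, with intensities of 5.14 ± 3.68 with PD0332991 and 4.94 ± 2.07 with vehicle (SD, n = 3 each).

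Rb1 encodes pRB itself, the pocket protein that binds the activating E2Fs (chromosome 14). Its intensities were 1963, 1753 and 1961 with PD0332991, against 2402, 2479.7 and 2308 with vehicle. The groups did not overlap, and PD0332991 replicate 2 was the lowest of the 6 arrays (log2 fold change -0.34, SE 0.06, limma adjusted p = 0.0131). The second Rb1 probe set was dim, at 18.6 ± 6.50 with PD0332991 and 20.2 ± 4.15 with vehicle (SD, n = 3 each), and its groups overlapped. When both probe sets were averaged the Rb1 call was lost (log2 fold change -0.21, limma adjusted p = 0.142).

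Rbl2 encodes p130, the usual pocket protein of DREAM in resting cells (chromosome 8). It had intensities of 1350.9, 1359.7 and 1249.98 with PD0332991, against 1419.8, 1458 and 1371 with vehicle. The PD0332991 arrays were lower without overlap, but by little, and the change was not called (log2 fold change -0.10, 95% interval -0.22 to 0.02, limma adjusted p = 0.221). Its second probe set, at 193 ± 7.69 with PD0332991 and 197 ± 9.41 with vehicle (SD, n = 3 each), gave a log2 fold change of -0.03 with overlapping groups. Rbl2 was not called under any of the 18 alternative settings.

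Whether Rbl1 and Rbl2 changed unequally was asked on each array, from the log2 value of Rbl1 minus that of Rbl2. It was -0.77, -0.71 and -0.64 on the PD0332991 arrays, against 0.18, 0.17 and 0.19 on the vehicle arrays. The groups were far apart relative to their spread (a shift of -0.89), and the exact two-sided permutation test gave p = 0.1, the smallest that 3 arrays against 3 allow. Levels of different probe sets are not comparable in themselves, so that only the shift of this difference between groups carries meaning.

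Of the 5 MuvB core genes, 4 were called lower, and the log2 fold changes of the 5 ran from -0.48 to -0.12. Lin54, whose protein contacts the CHR element (chromosome 5), had the lowest value of the 5. It had intensities of 976, 948 and 1019.99 with PD0332991, against 1312, 1444 and 1381 with vehicle (log2 fold change -0.48, SE 0.05, limma adjusted p = 0.00229). Its groups were well separated, and a second, dimmer probe set also gave -0.48 and was called.

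Lin9, a scaffold of the core that also serves the B-Myb form (chromosome 1), had intensities of 958, 917 and 968 with PD0332991, against 1143, 1278 and 1232 with vehicle. The groups did not overlap (log2 fold change -0.35, SE 0.05, limma adjusted p = 0.00771). The dimmer Lin9 probe set pointed the same way without being called (log2 fold change -0.32, limma adjusted p = 0.0613 over all probe sets).

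Lin52 encodes the small subunit whose phosphorylation by DYRK1A, described in human cells, lets MuvB bind a pocket protein (chromosome 12). It was dim, with intensities of 65.3, 50.9 and 58.0 with PD0332991, against 84.8, 86.9 and 78.2 with vehicle. The groups were apart on this probe set (log2 fold change -0.43, SE 0.08, limma adjusted p = 0.0168), but overlapped on the second one, of nearly the same brightness, where the log2 fold change was -0.06. The Lin52 call was lost when vehicle replicate 1, vehicle replicate 2 or PD0332991 replicate 3 was left out (limma adjusted p = 0.0614, 0.0599 and 0.0553) and when the probe sets were averaged (0.0882).

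Rbbp4, a histone-binding WD-repeat protein shared with other chromatin complexes (chromosome 4), was read by 4 probe sets, all called lower. On the brightest the intensities were 5216, 5019 and 5202 with PD0332991, against 6117, 6115 and 6111 with vehicle. That probe set gave a log2 fold change of -0.25 (SE 0.03, limma adjusted p = 0.00571) and carries the suffix x_at, given to probe sets that may also match unrelated sequences. The remaining ones gave -0.24, -0.33 and -0.52, the last from the only one with the plain suffix, a change more than 1.5 times that of the brightest. After centring on the spike-ins the call on the brightest was lost (limma adjusted p = 0.0527) although the log2 fold change was larger (-0.38).

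Lin37, a subunit required for repression by DREAM (chromosome 7), was the core gene that was not called. It had intensities of 146, 153 and 156 with PD0332991, against 162, 161 and 174 with vehicle. All PD0332991 arrays were lower, by a margin of the same size as the spread within groups (log2 fold change -0.12, 95% interval -0.23 to -0.00469, limma adjusted p = 0.137, unadjusted p = 0.0437). It was measured by 1 probe set.

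**Figure D2:**
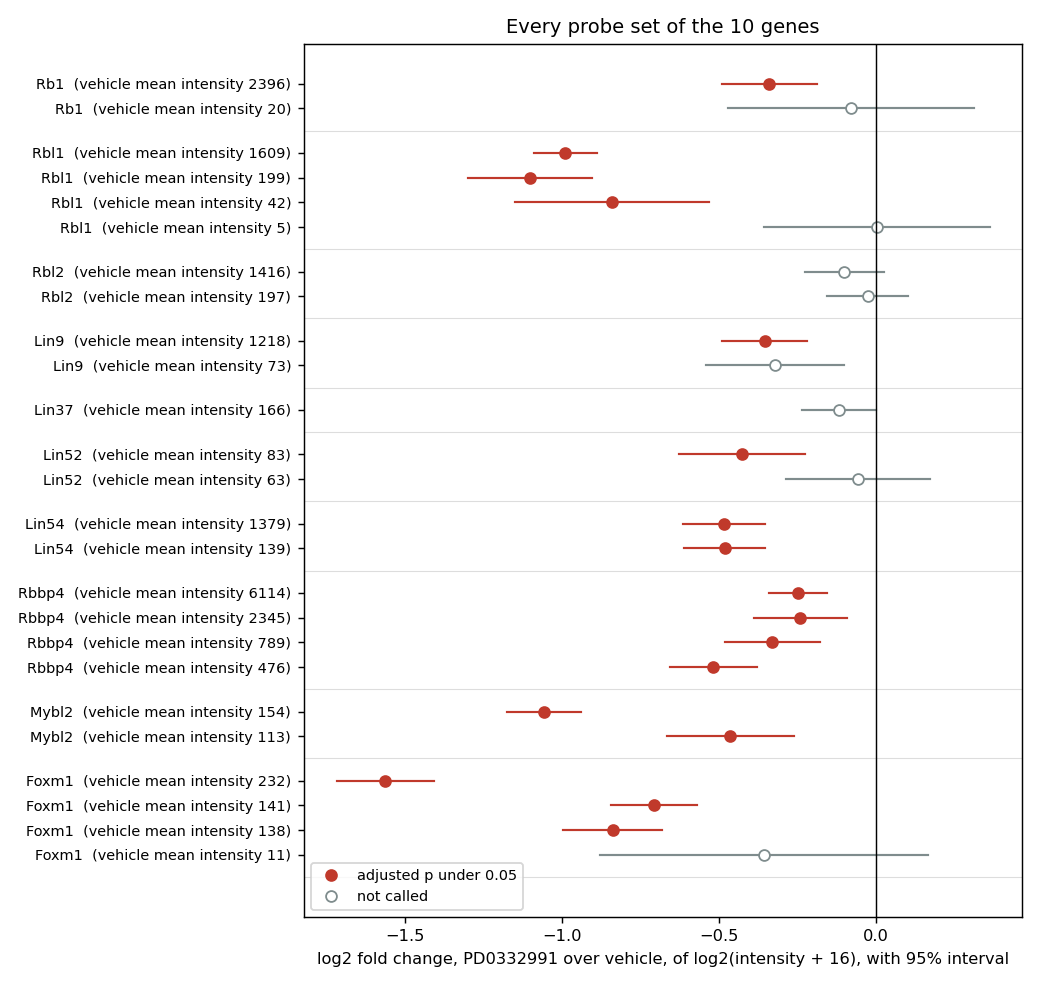
Log2 fold change of PD0332991 over vehicle with its 95% interval for all 25 probe sets of the 10 genes, ordered within each gene by brightness, with the mean vehicle intensity in the labels; filled red points were called lower. Called probe sets number 17, and none of these lies on the higher side. Probe sets of a gene can differ in size, as for Foxm1 (-1.56 to -0.36), Rbl1 (-1.10 to 0.003), Mybl2, Lin52, Rbbp4 and Rb1.

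The factors that join MuvB in the cycle both fell, and with Rbl1 they had the lowest log2 fold changes of the 10 genes. Mybl2, which encodes B-Myb and is switched on at the start of S phase (chromosome 2), had intensities of 63.7, 68.2 and 65.05 with PD0332991, against 150.3, 162 and 150.1 with vehicle. The gap was many times the spread within groups (2.08-fold lower, log2 fold change -1.06, SE 0.05, limma adjusted p = 8.3e-05). Its second probe set was called too, at 78.1 ± 9.64 with PD0332991 and 113 ± 3.64 with vehicle (SD, n = 3 each), with a log2 fold change of -0.46.

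Foxm1, a forkhead factor of the G2 and mitotic programme (chromosome 6), had intensities of 65.9, 68.6 and 68.4 with PD0332991, against 230.2, 251 and 214 with vehicle. This was the largest fall of the 10 genes (2.96-fold lower, log2 fold change -1.56, SE 0.06, limma adjusted p = 6.5e-05), and 71 of all genes fell further. A pair of other Foxm1 probe sets was called with log2 fold changes of -0.84 and -0.71. A dim one, with an intensity of 5.47 ± 5.48 with PD0332991 and 11.2 ± 5.03 with vehicle (SD, n = 3 each), was not called. Averaging the 4 probe sets gave -0.87 for Foxm1, which was still called (limma adjusted p = 0.000499). The size of its fall rests on which probe set is read, and the dim one alone gave no call.

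The difference of Mybl2 minus Foxm1 was taken on each array in the same way as for the pocket proteins. It was -0.04, -0.01 and -0.06 (log2) on the PD0332991 arrays, against -0.57, -0.58 and -0.47 on the vehicle arrays, a shift of 0.50. The groups did not overlap, Foxm1 being the gene that fell further on these probe sets, with p = 0.1 in the exact two-sided permutation test, again the smallest possible. With all probe sets averaged, the shift was 0.11 and the exact permutation p was 0.4.

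Over the 25 probe sets, 17 were called lower and none higher, beside 9.7% of all 34945 probe sets called lower and 17.6% called in either direction. The 8 that were not called were both probe sets of Rbl2, the one of Lin37, and the dimmest ones of Rb1, Rbl1, Lin9, Lin52 and Foxm1. In 20 of the 25, all PD0332991 arrays lay below all vehicle arrays, as did 19.1% of all probe sets.

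Genes with the profile most like that of a member were sought for Rbl1, Mybl2 and Foxm1, as the distance over the 6 arrays between log2 values taken relative to the vehicle mean, among 9096 genes above the median level. Nearest to Rbl1 were Chek2, a checkpoint kinase (distance 0.0534, log2 fold change -1.004), Smc4, a condensin subunit (0.0653, -0.96), and Cmc2 (0.0675, -0.96). Nearest to Mybl2 were Dnajc9, a histone co-chaperone (0.0860, -1.09), Fignl1, of homologous recombination (0.0892, -1.03), and Mcm3, of the replicative helicase (0.0953, -1.07). Nearest to Foxm1 were Dna2, a nuclease and helicase (0.0997, -1.59), Cit, citron kinase (0.118, -1.54), and Ccna2, cyclin A2 (0.132, -1.58). With 6 arrays in 2 groups, likeness of this kind mostly reflects an equal difference between the groups. Mybl2 and Foxm1 themselves lay below that median level, and their log2 fold changes varied with the pseudocount, the number added to each intensity. They were -1.22 and -1.76 with a pseudocount of 1, and -0.75 and -1.17 with a pseudocount of 64. Whether the same genes lie nearest to Mybl2 and Foxm1 with another pseudocount was not tested.

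The partners of DREAM and the kinases around it were read from a list of 11 genes. Of these 11 partners and regulators, 4 were called lower and none higher, and their median log2 fold change was -0.13. E2f4 and E2f5, the repressive E2Fs, had log2 fold changes of -0.13 and -0.06 and were not called (limma adjusted p = 0.242 and 0.406). Of the DP genes, Tfdp1 fell by 0.32 on the log2 scale (2574 ± 14.7 with PD0332991 and 3225 ± 109.7 with vehicle, SD, n = 3 each, limma adjusted p = 0.00353), while Tfdp2 had -0.10 and was not called on its brightest probe set, although 2 of its 4 probe sets were called lower. Rbbp7, the close relative of Rbbp4, was called with a small log2 fold change of -0.15.

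The kinase genes Dyrk1a, Dyrk1b, Lats1 and Lats2 were not called on their brightest probe sets, and 1 of 6 Lats2 probe sets was called, higher (log2 fold change 0.16, limma adjusted p = 0.0494 over all probe sets). Dyrk1a changed by -0.16 on the log2 scale, with limma adjusted p = 0.0941, and Dyrk1b, Lats1 and Lats2 had values of 0.02, 0.06 and 0.03. The remaining MYB family genes fell beside Mybl2. Mybl1, which encodes A-Myb, had an intensity of 284 ± 12.3 with PD0332991 and 524 ± 16.5 with vehicle (SD, n = 3 each), which is -0.85 as a log2 fold change (limma adjusted p = 0.00018). Myb itself had 227 ± 8.57 with PD0332991 and 433 ± 31.9 with vehicle (SD, n = 3 each), a log2 fold change of -0.88. All 7 probe sets of the 3 MYB genes were called lower.

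Of 16 genes for kinases, cyclins, inhibitors and phosphatases that set pocket protein phosphorylation, 4 rose and 7 fell, with a median log2 fold change of -0.11. Ccnd2 and Cdkn1a, which encode cyclin D2 and p21, were higher by 1.49 and 0.80 on the log2 scale, and Ccna2 and Ccne2, of the S-phase cyclins, had log2 fold changes of -1.58 and -1.38. Among 17 repressors bound by RB and related E2F genes, 6 fell and 1 rose. The atypical repressors E2f7 and E2f8 had log2 fold changes of -1.95 and -1.83, and the demethylase gene Kdm5b rose by 0.25. Of 18 genes of other complexes that contain RBBP4, 11 fell and none rose on their brightest probe sets, with a median of -0.16. Gatad2a, named after its values were seen, was not called on that probe set. A dimmer Gatad2a probe set was called higher (log2 fold change 0.51, limma adjusted p = 0.00407 over all probe sets). Another was called lower (-0.38, limma adjusted p = 0.0462). The largest falls among the 18 genes were in Chaf1b, of the chromatin assembly factor (-1.28), and Ezh2, the Polycomb methyltransferase (-0.77).

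Most genes listed as targets of the complex were called lower, beside 11.2% of all genes. The lists were chosen with earlier results of these data known, and binding was not measured in these cells. Of 29 G2/M genes listed as targets of MuvB with B-Myb or FoxM1, all 29 were called lower. Their log2 fold changes ran from -2.08 to -0.17, with a median of -1.65. Of 27 G1/S genes listed as targets of E2F and DREAM, 25 were called lower, with a median of -0.96. Nek2, a centrosome kinase, had an intensity of 627 ± 40.6 with PD0332991 and 2366 ± 76.7 with vehicle (SD, n = 3 each), and Cenpa, the centromeric histone, had 1116 ± 59.5 with PD0332991 and 3701 ± 30.5 with vehicle. Cdc6 and Mcm5, of replication licensing, had log2 fold changes of -1.69 and -1.25. E2f1 and E2f2 were the G1/S genes not called, a pair named after their values were seen, with log2 fold changes of -0.01 and -0.09 on their brightest probe sets. A dimmer probe set of each was called lower, at -0.72 for E2f1 (1 of 3 probe sets, limma adjusted p = 0.00118 over all probe sets) and -1.40 for E2f2 (1 of 2, limma adjusted p = 0.000942). No test compares these lists with the 10 genes, and their medians are given as descriptions.

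**Figure D3:**
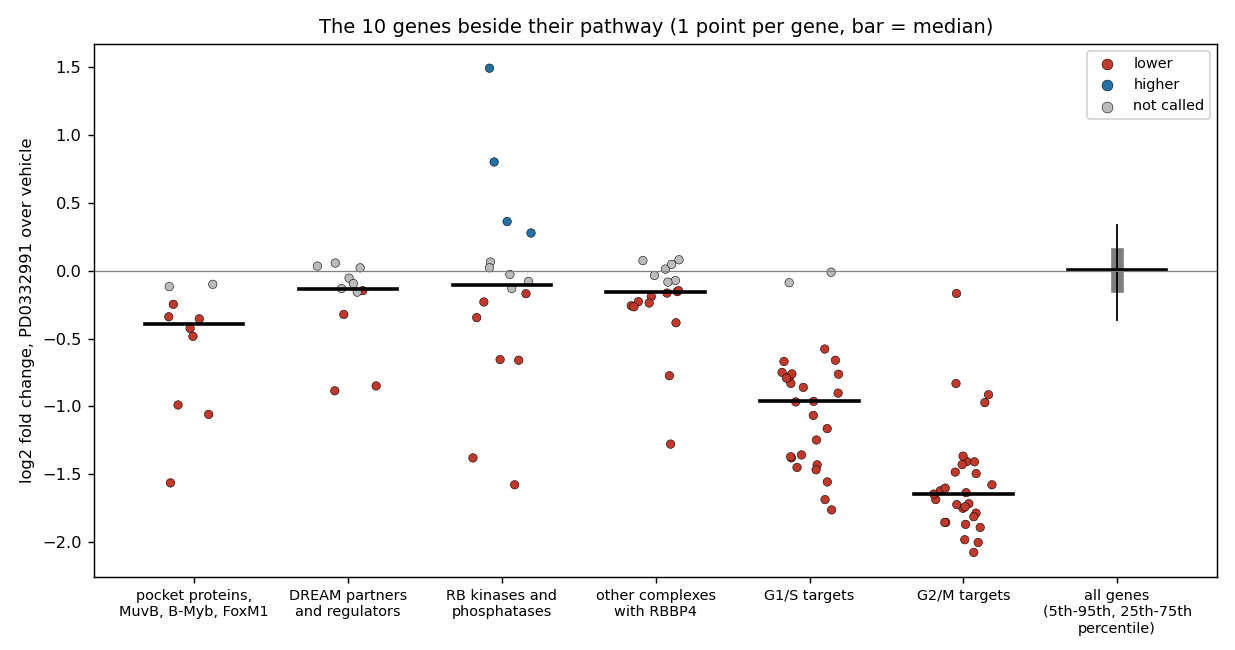
Log2 fold change of PD0332991 over vehicle for the 10 genes and for the genes of 5 pathway lists, 1 point per gene with the list median as a bar, and percentiles of all genes at the right. The G2/M and G1/S targets lie lowest, with medians of -1.65 and -0.96, and the 10 genes spread between -1.56 and -0.10.

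Markers of cell types were read on the same arrays. Of 12 epithelial markers, 2 rose (Krt7 and Cldn4, by 0.20 and 0.62 on the log2 scale) and 1 fell (Elf3, -0.40). Of the fibroblast markers 1 fell (Pdgfra, -0.52). The other Pdgfra probe sets, which were dimmer, gave 0.04 and -0.11 and were not called. Of the endothelial markers 1 fell (Emcn, -0.43, at an intensity of 5.71 ± 0.289 with PD0332991 and 13.2 ± 0.737 with vehicle, SD, n = 3 each). No adipocyte marker was called (Adipoq and Cidec had the smallest p, with log2 fold changes of 0.17 and 0.27). Of 9 leukocyte markers, 2 rose and 1 fell. Ptprc was dim, at 18.2 ± 1.02 with PD0332991 and 11.6 ± 1.67 with vehicle (SD, n = 3 each), and 1 of its 2 probe sets was called. Cd68 had 308 ± 14.7 with PD0332991 and 230.1 ± 15.2 with vehicle. Laptm5, which fell, had 83.7 ± 6.23 with PD0332991 and 114 ± 15.4 with vehicle (limma adjusted p = 0.0484), and 0 of its 5 probe sets was called in the test over all probe sets. The summed leukocyte intensity was 2435 to 2575 with PD0332991 and 2221 to 2332 with vehicle, and the summed fibroblast intensity was 2209.7 to 2637 with PD0332991 and 2557 to 2659 with vehicle. Single genes carry most of these sums, Cd14 the leukocyte one (1905 ± 73.2 with PD0332991 and 1740 ± 39.1 with vehicle, not called) and Postn the fibroblast one (2084 ± 195 with PD0332991 and 2204 ± 71.7 with vehicle, SD, n = 3 each, not called). Both genes are named after their values were seen, and the sums do not describe a cell class as a whole. The part of other cells in these results was not tested.

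**Figure D4:**
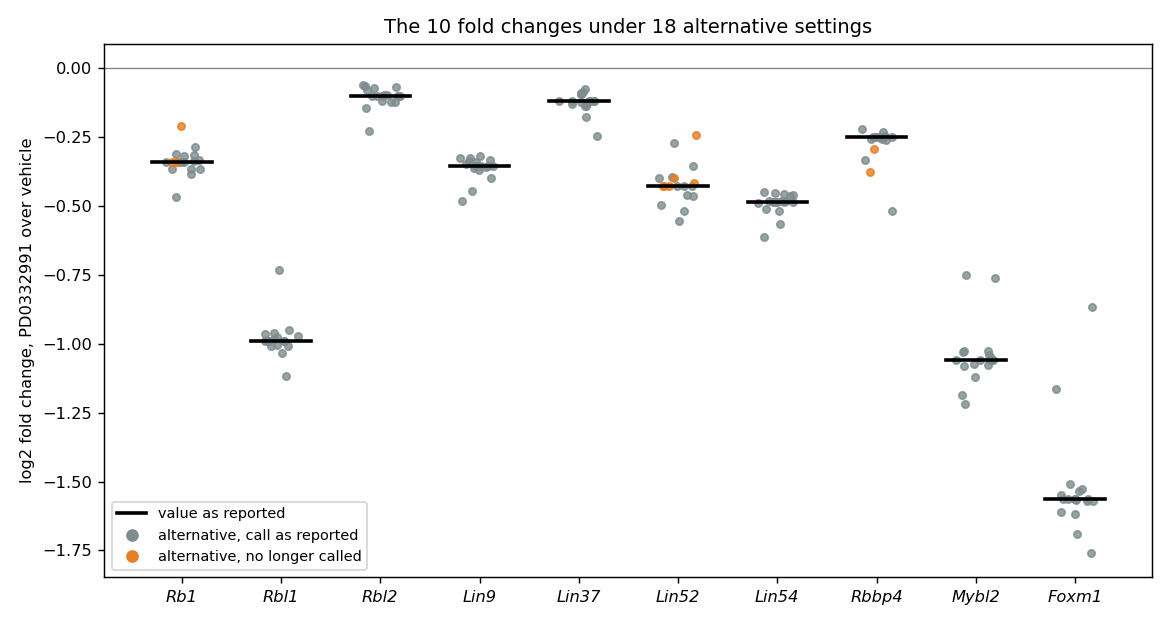
Log2 fold change of each of the 10 genes as reported (black bar) and under 18 alternative settings (points), orange where the gene was no longer called. All values lie below 0, and orange points occur for Rb1, Lin52 and Rbbp4.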

How the data were processed

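Biotin-labelled total RNA of each sample was read on its own Affymetrix array, per the labels' protocols. The deposited table holds a linear intensity for each of 45101 probe sets and 6 arrays. How the authors summarised and scaled the arrays is not given in the sources used here. Any scaling to a shared level would hide a difference in total RNA per cell. The table holds no detection calls, and no further normalization was applied.

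After 64 control probe sets were left out, 34945 probe sets with exactly 1 gene symbol named 18193 genes, of which 18032 matched RefSeq (GRCm38.p6) by gene number. A gene was represented by its brightest probe set, and probe sets were also tested singly. Intensities were transformed to log2(intensity + 16) and compared by limma 3.58.1 (lmFit, eBayes; R 4.3.3), with Benjamini-Hochberg adjustment over all genes or all probe sets. Because the number of arrays is small, it limits the precision. The procedure was tested on simulated data. Tables and figures were made in Python 3.11.15 with pandas 2.3.3, scipy 1.17.1 and matplotlib 3.10.9.

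All 10 members were named, with all DREAM partners and regulators. From each other list at most 4 called genes were named, the 2 with the smallest p in each direction, or, in lists with no call, the 2 of lowest p. Likeness was sought for members called with a change of at least 0.5. The members and lists were chosen with earlier results of these data known. Rbbp7, Ccna2, Ccne1, Ccne2, Hdac1, Hdac2, E2f1, E2f2 and Skp2 stand in more than one list. List genes not measured were not analysed here. Alternatives were other scalings, pseudocounts of 1 and 64, a filter on dim rows, other choices of probe set, eBayes with trend and robust settings, a replicate block, a threshold of 0.01 and each array left out. Spike-in centring without vehicle replicate 1 was chosen after seeing the data.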

Additional observations from a re-analysis of the deposited data

How the results depend on the processing

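No member changed direction under any of the 18 alternatives. The eBayes, dim-row filter, replicate block and 0.01 threshold settings leave the log2 fold change itself as reported, so direction could not change there. Taking the brightest probe set with a plain suffix also left it as reported, except for Rbbp4 (-0.52). In 169 of 180 comparisons with the value as reported, the call or the lack of a call stood. These include 18 each for Rbl2 and Lin37, which had no call to lose. The other 11 were lost calls: 6 of Lin52, 3 of Rb1 and 2 of Rbbp4. The number of members called was 8 as reported and 6 to 8 under the alternatives, and the number of their probe sets was 17 as reported, 11 at an adjusted p of 0.01 and 12 to 16 with 1 array left out. Deviations of same-numbered arrays correlated between -0.0515 and 0.0497, so no shared replicate effect was seen. Such values cannot tell whether same-numbered samples were paired. With a replicate block, 11 member probe sets and 2047 genes were called, and Rb1 (limma adjusted p = 0.0651) and Lin52 (0.0576) were not. All genes called numbered 3820 as reported, 1715 with spike-in centring, 1571 with spike-in centring minus vehicle replicate 1, 1703 at 0.01, and 2497 to 2683 with 1 array left out. Without vehicle replicate 1, vehicle replicate 3 or PD0332991 replicate 2 there were 2538, 2497 and 2522. The call of Rbbp4 was also lost in spike-in centring without vehicle replicate 1 (limma adjusted p = 0.0601). The cause of the lost calls was not tested. The shifts of Rbl1 minus Rbl2 and of Mybl2 minus Foxm1 kept their sign under every alternative run for them, at -0.92 to -0.67 and 0.11 to 0.54. The replicate block leaves both shifts as reported, so their sign could not change there. Dim probe sets limit what can be read of Lin52, Mybl2 and Foxm1.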

Other observations

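The same search of the 250 bases before the start site was made for the target lists, by gene, counting a gene once if any of its promoters matched. A CHR-type string was found in 10 of 24 G2/M targets with a RefSeq promoter (41.7%), in 4 of 24 G1/S targets (16.7%) and in 19.6% of all 27025 genes in the promoter table. TTTCGCGC or TTTGGCGC was found in 1 of 24 G2/M targets, in 6 of 24 G1/S targets and in 0.759% of all genes. GGCGGGA was found in 9 of 24 G2/M and 7 of 24 G1/S targets, and in 11.03% of all genes. A forkhead-type string, TGTTTAC, was searched too, and was found in 0 of 24 G2/M targets and 0 of 24 G1/S targets. It was found in 0 of the 7 members with a promoter and in 3.54% of all genes. The lists hold genes known for E2F or CHR sites, so that these shares describe the lists and are not evidence from the arrays.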
